A study of Homo sapiens with 4 samples.

Results

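Complex I of the mitochondrial respiratory chain is described here at the level of its nuclear transcripts, in neuroblastoma cells with lowered TTC8. The members were the protein-coding genes whose symbols start with NDUFA, NDUFB, NDUFC, NDUFS, NDUFV or NDUFAF, without the read-through gene NDUFC2-KCTD14. The rule found 47 genes among the 64252 gene IDs counted: 37 subunits, 8 assembly factors named NDUFAF, and NDUFA4 and its paralog NDUFA4L2, which are kept apart because NDUFA4 is now placed in complex IV. All 47 had enough counts to be tested.

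RNA was sequenced from SK-N-BE(2), an established MYCN-amplified neuroblastoma line. The 4 libraries came from cells transfected with a scramble short hairpin (shScb, control, 2 libraries) or with a hairpin against TTC8 (shTTC8, TTC8-knockdown, 2 libraries). Both groups therefore carry a hairpin, and whether 1 hairpin or several targeted TTC8 is not stated in the labels. TTC8, a gene of the BBSome, which moves membrane proteins through the cilium, stood at 196 and 191 CPM (counts scaled to library size) in shScb 1 and 2 and at 29.1 and 30.6 CPM in shTTC8 1 and 2. Library totals ran from 38284663 to 55331449 counts, and both shTTC8 libraries were shallower than both shScb libraries. The line's 8 neuroblastoma markers, MYCN among them, were all present, with a sum of 8658 to 8970 CPM in shScb and 6201 to 6379 CPM in shTTC8; 6 were lower and 1 was higher. Markers of other cell types were also read. Of the fibroblast and endothelial markers COL1A1, COL3A1, PDGFRB, PECAM1 and VWF, 4 of 4 tested were lower in shTTC8 and PECAM1 had no count; their sum was 226 to 233 CPM in shScb and 164 to 174 CPM in shTTC8, most of it from PDGFRB. The blood marker PTPRC fell from 15.8 and 15.0 to 3.55 and 2.996 CPM, CD3E had no count, and the epithelial markers EPCAM and KRT19 summed to 6.22 to 6.53 and 4.38 to 5.001 CPM, with 1 of 2 lower. The part of such cells in the results below was not tested. In bulk RNA, a change in the number of cells that express a gene and a change in RNA per cell cannot be told apart. Nothing in the labels shows whether a group's 2 libraries are separate cultures, and the p-values below thus reflect only how far these libraries spread, possibly for technical reasons.

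Complex I takes electrons from NADH, passes them along a chain of iron-sulfur clusters to ubiquinone, and pumps protons across the inner mitochondrial membrane. The N module binds NADH, the Q module reduces ubiquinone, and the proximal and distal membrane arms hold the proton pumps, whose core subunits are encoded by mitochondrial DNA. A small set of conserved core subunits carries out the catalysis, supernumerary subunits surround them, and assembly factors help build the complex and then leave it.

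The promoters of 5 genes are shown because they span the outcomes described below: NDUFB2 and NDUFA1 were among the subunits with the clearest rises, NDUFA12 rose less, NDUFB4 did not pass the test and NDUFAF2 fell. Each sequence is the 250 bases before the RefSeq transcript start (GRCh38.p14), 5′ to 3′ on the gene's strand. Capitals mark matches, on either strand, to the consensus of the nuclear respiratory factor NRF1, which has 10 letters with 1 of them free, or to the letters CCGGAAG (ETS factors such as GABPA).
NDUFB2, chr7:140696458-140696707, plus strand: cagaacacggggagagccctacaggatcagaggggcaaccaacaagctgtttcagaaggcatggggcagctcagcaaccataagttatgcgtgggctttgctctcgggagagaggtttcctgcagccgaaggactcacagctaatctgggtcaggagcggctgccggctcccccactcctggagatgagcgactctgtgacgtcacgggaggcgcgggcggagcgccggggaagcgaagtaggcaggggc
NDUFA1, chrX:119871582-119871831, plus strand: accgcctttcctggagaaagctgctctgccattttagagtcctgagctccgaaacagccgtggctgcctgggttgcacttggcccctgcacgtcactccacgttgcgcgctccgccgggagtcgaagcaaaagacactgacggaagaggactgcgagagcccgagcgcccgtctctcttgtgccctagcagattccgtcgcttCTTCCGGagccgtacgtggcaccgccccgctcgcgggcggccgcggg
NDUFA12, chr12:95003698-95003947, minus strand: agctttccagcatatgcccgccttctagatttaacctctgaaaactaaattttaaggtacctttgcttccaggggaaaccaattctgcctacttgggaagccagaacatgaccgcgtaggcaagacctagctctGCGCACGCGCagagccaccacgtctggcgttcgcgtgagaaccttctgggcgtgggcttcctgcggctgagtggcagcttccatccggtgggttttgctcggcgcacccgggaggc
NDUFB4, chr3:120596086-120596335, plus strand: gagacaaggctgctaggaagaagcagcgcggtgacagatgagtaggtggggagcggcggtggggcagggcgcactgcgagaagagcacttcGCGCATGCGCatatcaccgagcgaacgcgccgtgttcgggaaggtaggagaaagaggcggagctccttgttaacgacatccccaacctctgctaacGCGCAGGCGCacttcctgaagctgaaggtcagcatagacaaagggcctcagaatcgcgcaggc
NDUFAF2, chr5:60944955-60945204, plus strand: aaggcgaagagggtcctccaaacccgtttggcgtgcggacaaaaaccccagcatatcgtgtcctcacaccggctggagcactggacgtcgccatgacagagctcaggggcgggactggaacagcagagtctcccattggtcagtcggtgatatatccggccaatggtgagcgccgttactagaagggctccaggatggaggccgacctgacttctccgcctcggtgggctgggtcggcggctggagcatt
NDUFA12 held 1 NRF1 match and NDUFA1 held 1 ETS match, whereas NDUFB2 and NDUFAF2 held none of the letters searched. NDUFB4, whose level did not pass the test, held 2 separate NRF1 matches in the stretch shown, and a further one crossed its transcript start.

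The search covered windows of 300 bases, from 250 before to 50 after each RefSeq transcript start, on both strands; 41 of the 47 members had at least 1 window, 54 in all. NDUFAF6, NDUFB5, NDUFB9, NDUFC2 and NDUFS5 were among those with no entry. The NRF1 consensus was in 12.96% of the members' windows and in 5.78% of all 35116 windows. The ETS letters were in 14.8% and 10.3%, respectively. The letters AAGATGGCG, of the factor YY1, were in 14.8% of the members' windows and in 1.75% of all windows. The YY1 matches belonged to NDUFA6, NDUFA7, NDUFA9, NDUFAF8, NDUFB8, NDUFS4 and NDUFS7, and each lay on the gene's own strand, 9 to 25 bases after a transcript start. Of these 7 genes, 5 were higher in shTTC8, while NDUFS4 and NDUFS7 did not pass the test. For comparison, 21 of all 37 subunits, 2 of the 8 assembly factors and 15.2% of all genes tested were higher. Whether a match goes with a rise was not tested. The ends of the ETS and YY1 letters can share bases, but no match of one motif overlapped a match of another in these windows. Windows of the same gene overlap, and a match describes letters, not binding.

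Subunit transcripts were higher in shTTC8. Of 37 subunits 21 passed the test upwards and none downwards (edgeR quasi-likelihood test, Benjamini-Hochberg adjusted p under 0.05 over all 19610 genes tested). Over all genes tested, 15.2% were called higher and 16.7% lower. The changes were small: the median log2 fold change of the subunits was 0.23, against 0.0035 over all genes tested. Values were positive for 34 of 37 subunits and for 9880 of all 19610 genes tested. Summed over the 37 subunits, the level was 3143 and 3456 CPM in shScb 1 and 2 and 4052 and 3990 CPM in shTTC8 1 and 2. Both shTTC8 libraries therefore lay above both shScb libraries in the sum, and they did so for 30 of the 37 single genes, against 32.5% of all genes tested. With NDUFA4 and NDUFA4L2 counted in, 23 of 39 were higher and none was lower.

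**Figure D1:**
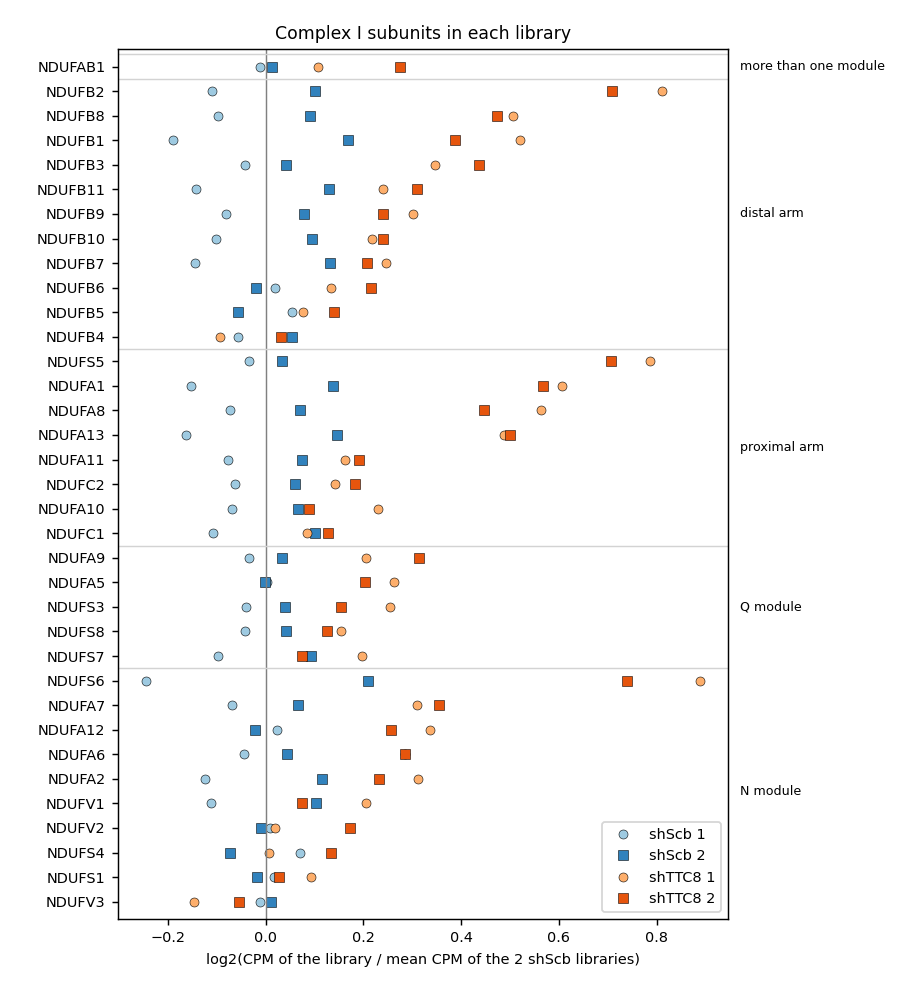
Level of complex I subunits in each library, as the log2 ratio of its CPM to the mean of the 2 shScb libraries (x axis), grouped by module; NDUFA3 is left out because its level was near 2 CPM. Most shTTC8 points lie to the right of both shScb points, and shScb 2 lies to the right of shScb 1 in most rows.

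The shScb libraries also differed from each other in these genes. Replicate 2 was above replicate 1 for 29 of 37 subunits, with a median log2 ratio of 0.12, whereas in shTTC8 replicate 2 was above replicate 1 for 19 of 37 with a median of 0.00053. Over all 19610 genes tested, shScb 2 was above shScb 1 for 9761 and shTTC8 2 above shTTC8 1 for 9702. Of 1112 protein-coding genes with a mean of at least 10 CPM and a transcript under 1500 bases, 843 had shScb 2 above. Their median log2 ratio of shScb 2 over shScb 1 was 0.093, and 616 of them had shTTC8 2 above shTTC8 1. The change of shTTC8 over shScb and the ratio of the shScb replicates both moved with transcript length. Among protein-coding genes with a reference transcript under 800 bases the median log2 fold change of shTTC8 over shScb was 0.16 and the median log2 ratio of shScb 2 over shScb 1 was 0.11; among those of 6000 bases or more the same medians were -0.09 and -0.08. The subunits are short, with a median reference transcript of 958 bases against 3161 bases among the protein-coding genes tested. In the classes under 800 bases and from 800 to 1500 bases, each with 14 subunits, the subunits had medians of 0.28 and 0.20 where their classes had 0.16 and 0.08.

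Of protein-coding genes with a mean of at least 10 CPM and a transcript under 1500 bases, 30.8% were called higher and 13.3% lower, among 1112 genes. Of these 1112 genes, 726 had a positive log2 fold change, and in 49.3% both shTTC8 libraries lay above both shScb libraries. When each library's trend with GC content and transcript length was taken out, 22 of 37 subunits were higher, none was lower, and their median was 0.20. Under that correction NDUFA11 (0.0075), NDUFB10 (0.080) and NDUFS3 (0.11) no longer passed, with edgeR adjusted p-values of 0.909, 0.187 and 0.0895. Conversely, NDUFS1 (0.19), NDUFB5 (0.21), NDUFB6 (0.26) and NDUFC2 (0.22) passed upwards, with edgeR adjusted p-values of 0.0041, 0.00295, 0.00105 and 0.00367. Among members that passed both ways, the correction moved NDUFA7 (to 0.21), NDUFB11 (to 0.15), NDUFB9 (to 0.18) and NDUFAF8 (to 0.28) down and NDUFA5 (to 0.39) and NDUFA4 (to 0.29) up by more than 1.5 times. The part of length in the rises was not tested further. The count depended on single libraries: 11 subunits were higher without shTTC8 replicate 1 and 13 without shTTC8 replicate 2, and the counts of higher genes over the whole table then fell too, from 2974 to 1880 and 2144. The median of the subunits was 0.24 without either of them. Dropping a control library moved this median further. It fell to 0.18 when shScb 1 was dropped and rose to 0.27 when shScb 2 was dropped.

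**Figure D2:**
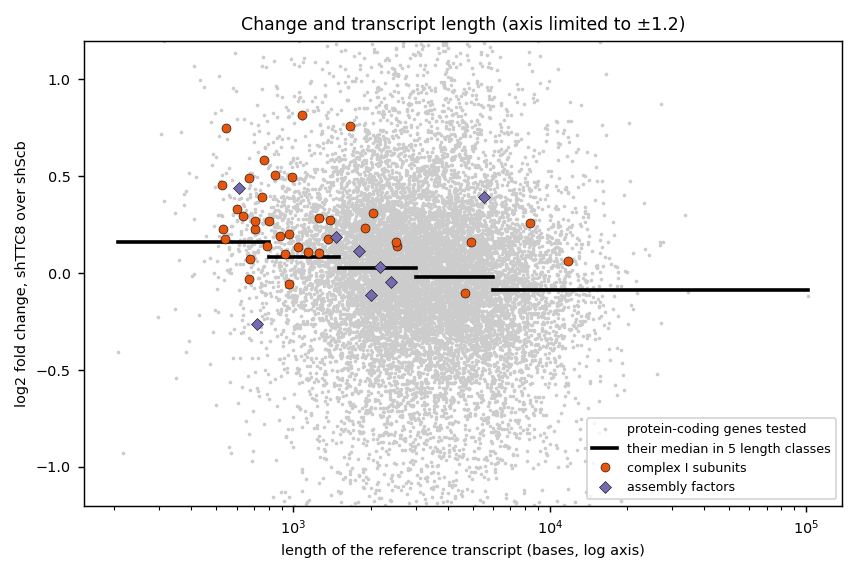
Log2 fold change of shTTC8 over shScb (y axis, limited to ±1.2) against the length of the reference transcript in bases (log x axis) for protein-coding genes tested (grey), with their median in 5 length classes (black lines), complex I subunits (orange) and assembly factors (purple). The class medians fall from 0.16 to -0.09 with length, and most subunits lie above the line of their class.

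The proximal membrane arm held the clearest single change. NDUFS5, a supernumerary subunit on the intermembrane-space side (ENSG00000168653, chromosome 1, 39026318 to 39034636, plus strand, GRCh38), stood at 122 and 128 CPM in shScb 1 and 2 and at 216 and 205 CPM in shTTC8 1 and 2. The groups were far apart relative to their replicates, 125 ± 4.15 against 210.5 ± 8.24 CPM (SD, n = 2), and the log2 fold change was 0.75 (SE 0.06, adjusted p = 4.4e-07 by edgeR). NDUFA8, another subunit facing the intermembrane space (chromosome 9, 122144058 to 122159819), had 50.4 and 55.7 CPM in shScb and 78.4 and 72.3 CPM in shTTC8. Its lowest shTTC8 value was thus well above its highest shScb value (log2 fold change 0.51, SE 0.07, edgeR adjusted p = 1.16e-04). NDUFA1, a small membrane subunit encoded on the X chromosome (119871487 to 119876662), had 40.7 and 49.8 CPM in shScb and 68.8 and 67.0 CPM in shTTC8 (log2 fold change 0.59, SE 0.09, adjusted p = 2.64e-04 by edgeR). NDUFA1 shares 44.5% of its exonic length with RNF113A on the other strand, which had 31.5% of its counts and a log2 fold change of -0.18.

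In all, 5 of 9 proximal-arm subunits were higher, with a median of 0.18. NDUFA13, also known as GRIM-19, had 133 and 165 CPM in shScb and 209 and 210 CPM in shTTC8, so that the shScb libraries differed from each other far more than the shTTC8 libraries did (log2 fold change 0.49, SE 0.09). NDUFA11 was at the edge of the test (0.18, edgeR adjusted p = 0.0496) and did not pass after the correction for GC content and length. NDUFC2, NDUFA10 and NDUFC1 had values of 0.16, 0.16 and 0.11 and did not pass.

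NDUFA3, the remaining proximal-arm subunit (chromosome 19, 54102728 to 54109257), was too unevenly counted to be compared. It had 147 and 75 counts in shScb and 4 and 165 in shTTC8, about 2 CPM on average, and its log2 fold change was -0.06 with an SE of 1.83. Within shTTC8 the libraries differed by 4.785 on the log2 scale, so 1 library sets its value: without shTTC8 replicate 2 it was -4.34 (edgeR adjusted p = 1.08e-04) and without shTTC8 replicate 1 it was 0.90. After this was seen, 6 neighbours were looked up. PRPF31 (410, 183, 118 and 308 counts) and LENG1 (10, 4, 2 and 23 counts) were also uneven within groups and low in shTTC8 1. CNOT3 (516, 529, 428 and 492 counts) was more even. TSEN34 (212, 383, 238 and 231 counts) and RPS9 (1011, 2259, 1879 and 2081 counts) were uneven in shScb but not in shTTC8. TFPT, which shares 6.34% of the exonic length of NDUFA3, had 36, 55, 41 and 84 counts. The table also holds 7661 gene IDs with no name in the references used, which took 1.82% to 1.904% of the counts of a library; whether reads of NDUFA3 were counted there was not tested.

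Distal-arm subunits gave 7 higher of 11, with a median of 0.27. NDUFB2 (chromosome 7, 140690777 to 140722790, plus strand) had 94.3 and 109 CPM in shScb and 178 and 166 CPM in shTTC8 (log2 fold change 0.76, SE 0.07, adjusted p = 3.74e-06 by edgeR). NDUFB2 overlaps BRAF over 27.9% of its exonic length, and BRAF, with 32.3% of its counts, had a log2 fold change of 0.14. NDUFB8, a membrane subunit of the same arm (chromosome 10, 100523740 to 100530000, minus strand), had 133 and 152 CPM in shScb and 202 and 198 CPM in shTTC8. The groups did not overlap for either gene, and for NDUFB8 the change was 0.49 (SE 0.07, edgeR adjusted p = 6.73e-05).

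The smaller rises in this arm were those of NDUFB1 (0.45), NDUFB3 (0.39), NDUFB11 (0.27), NDUFB9 (0.27) and NDUFB10 (0.23). NDUFB7, NDUFB6 and NDUFB5 had values of 0.23, 0.18 and 0.11 and did not pass. NDUFB4 stood apart from the rest of the arm, with 118 and 127 CPM in shScb and 115 and 125 CPM in shTTC8. Its replicates differed by more than its groups did (log2 fold change -0.03, SE 0.07, edgeR adjusted p = 0.78).

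Q-module subunits, which form the ubiquinone site, gave 4 higher of 6, with a median of 0.22. NDUFA9 (0.26), NDUFA5 (0.23) and NDUFS3 (0.20), of which NDUFS3 is a core subunit, were among the higher ones. NDUFA9 had 77.1 and 80.8 CPM in shScb and 91.0 and 98.1 CPM in shTTC8, and NDUFA5 had 57.9 and 57.7 CPM against 69.4 and 66.6 CPM. The groups did not overlap for either gene. The core iron-sulfur subunits NDUFS7 and NDUFS8 had values of 0.14 each, did not pass, and were at -0.028 and -0.023 after the correction for GC content and length.

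N-module subunits ranged from -0.10 to 0.81. The supernumerary subunits NDUFA7 (0.33), NDUFA12 (0.30), NDUFA6 (0.29) and NDUFA2 (0.27) were higher, 4 of 10 in the module. NDUFV1, the flavin-carrying core subunit that binds NADH and the most abundant subunit in CPM that did not pass, had 264 and 306 CPM in shScb and 328 and 300 CPM in shTTC8. Its groups overlapped (log2 fold change 0.14, SE 0.08, edgeR adjusted p = 0.193). NDUFS1, NDUFS4 and NDUFV2 had values of 0.06, 0.07 and 0.10, and NDUFV3 had -0.10; none of the 4 passed.

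NDUFS6, a zinc-binding subunit added late in assembly, had the highest fitted value of the subunits but did not pass. It stood at 49.5 and 67.8 CPM in shScb and at 109 and 97.9 CPM in shTTC8. Both shTTC8 libraries were above both shScb libraries, yet the shScb libraries differed from each other by 0.45 on the log2 scale (log2 fold change 0.81, SE 0.19, edgeR adjusted p = 0.0653). DESeq2 gave an adjusted p of 0.00347, and edgeR without robust fitting gave 0.0016.

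By role, 2 of the 7 conserved core subunits were higher, with a median of 0.14. Of the 30 supernumerary subunits 19 were higher, with a median of 0.27 and a range from -0.10 to 0.81. This split was made after the values were seen, and the difference between the 2 sets was not tested. NDUFAB1, the mitochondrial acyl carrier protein that sits in more than one module, was higher by 0.19 (SE 0.07, edgeR adjusted p = 0.0422), with 85.4 and 86.9 CPM in shScb and 92.8 and 104 CPM in shTTC8.

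Reads shared with overlapping genes could not be told apart by strand, since the library kit does not mark it. Some overlaps, such as that of NDUFS3 with PTPMT1, lie on the same strand, where strand would not separate the reads either. Of the subunits, 7 shared at least 10% of their exonic length with a gene that had at least 10% of their counts: NDUFA1, NDUFB2, NDUFB3, NDUFB8, NDUFB9, NDUFB11 and NDUFS3. All 7 were among the subunits called higher. Without them, 14 of 30 subunits were higher, none was lower, and the median was 0.19. Of these 7 overlapping genes, MTSS1, which shares positions with NDUFB9, was lower (-0.85), and the others did not pass the test. Smaller overlaps with more abundant genes remained for NDUFA7, which shares 6.30% of its exonic length with RPS28 (879% of its counts), NDUFA2, which shares 4.70% with IK (243%), and NDUFS3, which shares 6.38% with CELF1 (211%). Pseudogenes of the members in the table held at most 3.12% of a member's counts, the most for NDUFV2.

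**Figure D3:**
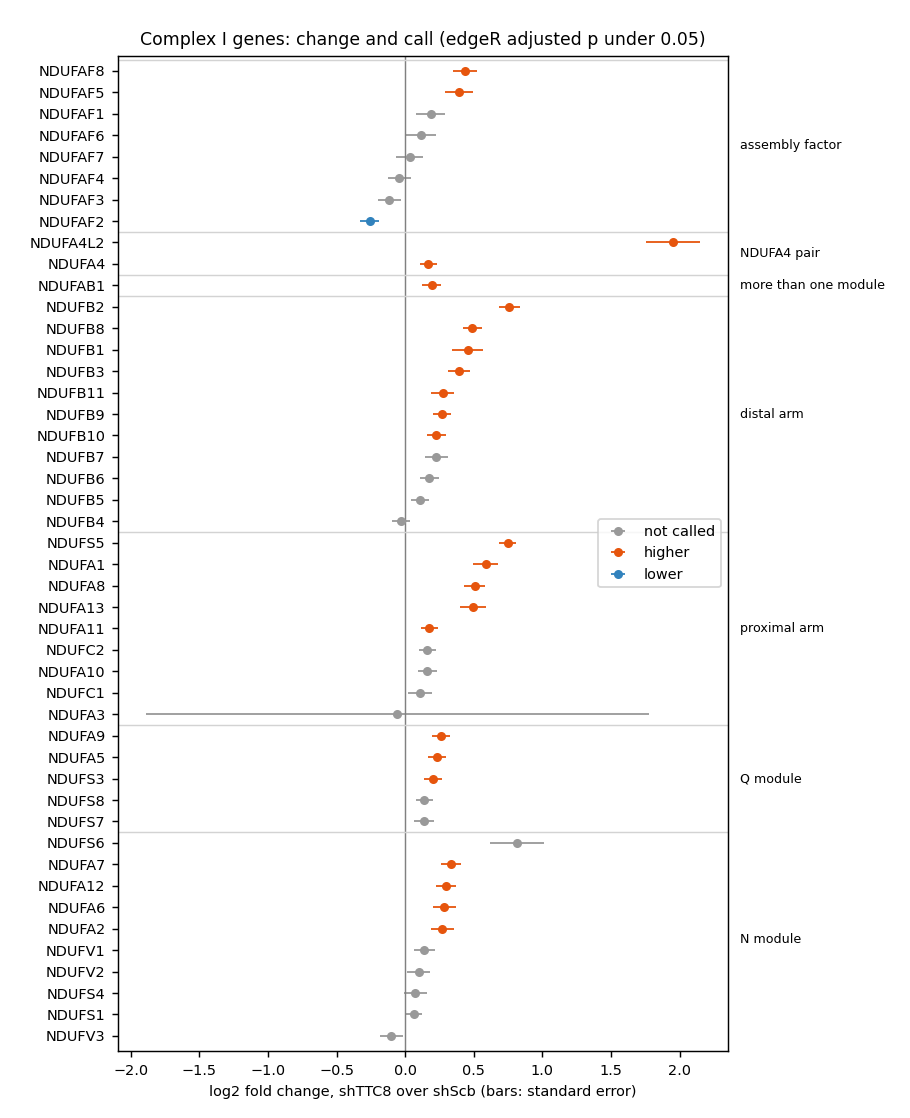
Log2 fold change of shTTC8 over shScb with its standard error (x axis) for complex I genes, grouped by module or class; orange, higher; blue, lower; grey, did not pass (edgeR adjusted p under 0.05). The subunits run from -0.10 to 0.81, NDUFA4L2 stands at 1.95, and the assembly factors run from -0.26 to 0.44.

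Assembly factors did not move together. The 8 NDUFAF genes had a median log2 fold change of 0.07, and 5 did not pass. Of the 8, 2 were higher and 1 was lower, against 15.2% and 16.7% of all genes tested. The higher ones encode partner proteins: NDUFAF5, which hydroxylates an arginine of NDUFS7, and NDUFAF8, which stabilizes NDUFAF5. NDUFAF5 (chromosome 20, 13784950 to 13821582, plus strand) had 13.5 and 14.9 CPM in shScb and 18.5 and 18.8 CPM in shTTC8. Its shTTC8 libraries were close together and above both shScb libraries (log2 fold change 0.39, SE 0.10, edgeR adjusted p = 0.00827). NDUFAF8 (chromosome 17, 81239239 to 81241281, plus strand) had 32.8 and 38.1 CPM in shScb and 48.8 and 47.3 CPM in shTTC8 (log2 fold change 0.44, SE 0.09, edgeR adjusted p = 0.00128). NDUFS7, the protein they act on, did not pass, as given above.

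NDUFAF2, a paralog of NDUFA12 that holds its place late in assembly, was the lower one. It had 55.1 and 57.3 CPM in shScb and 47.2 and 46.7 CPM in shTTC8. The groups did not overlap, and NDUFAF2 fell by 0.26 on the log2 scale (SE 0.07, edgeR adjusted p = 0.0116), while NDUFA12 rose from 52.5 and 50.9 CPM to 65.3 and 61.8 CPM (0.30, SE 0.07, edgeR adjusted p = 0.00462). The call of NDUFAF2 was lost when either shTTC8 library was left out, and that of NDUFA12 when shTTC8 replicate 1 was left out. Per kilobase of the reference transcript, the mean level of NDUFAF2 was 78.1 CPM in shScb and 65.3 in shTTC8, and that of NDUFA12 was 81.4 and 100.1.

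The other 5 assembly factors had values from -0.11 to 0.19. NDUFAF1, of the early membrane-arm assembly complex, had 13.9 and 12.99 CPM in shScb and 15.3 and 15.3 CPM in shTTC8 (0.19, edgeR adjusted p = 0.205). NDUFAF3 and NDUFAF4, which act together on the early Q module, had values of -0.11 and -0.04. NDUFAF3 had 33.7 and 33.3 CPM in shScb and 31.2 and 30.6 CPM in shTTC8 and passed the test downwards after the correction for GC content and length (-0.25, edgeR adjusted p = 0.0158). It shares 21.7% of its exonic length with DALRD3, which had 31.4% of its counts and a log2 fold change of -0.30. NDUFAF6 and NDUFAF7, the latter a methyltransferase that acts on the complex during assembly, overlapped between groups, with values of 0.11 and 0.03. On the per-kilobase scale in shScb, the median was 62.8 CPM for the subunits and 11.0 CPM for the assembly factors.

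**Figure D4:**
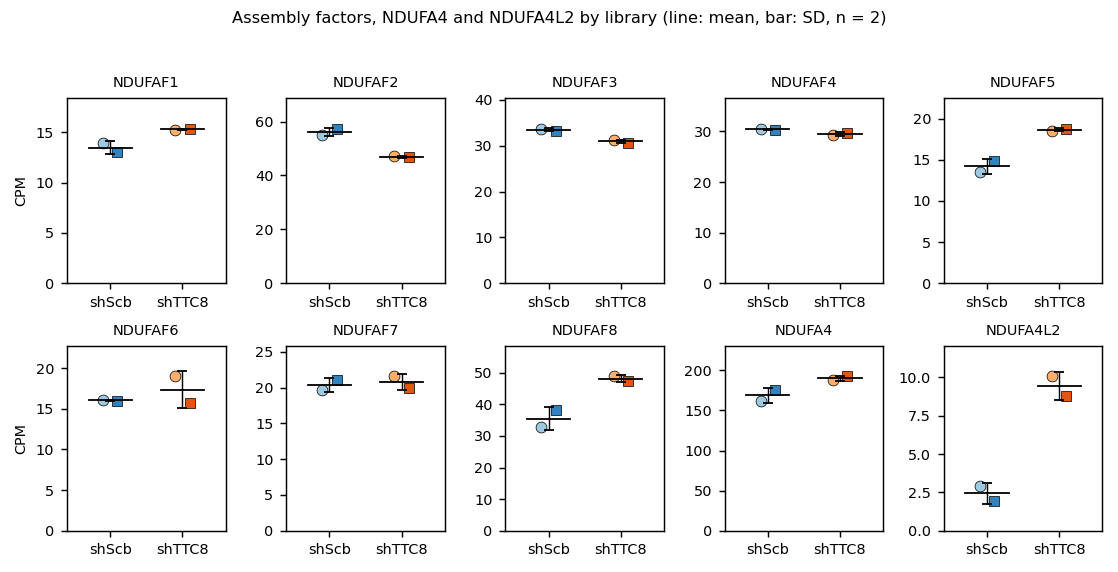
CPM in each library (y axis, from 0) of the 8 assembly factors, NDUFA4 and NDUFA4L2; circles are replicate 1, squares replicate 2, lines the mean and bars the SD (n = 2). NDUFAF5, NDUFAF8, NDUFA4 and NDUFA4L2 are called higher and NDUFAF2 lower in shTTC8, with no overlap between the groups. NDUFAF1, NDUFAF3 and NDUFAF4 did not pass the test, and their groups do not overlap either.

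NDUFA4L2 had the largest fold change of the 47 genes, at a low level. Its product is related to NDUFA4 and it is known as a gene induced by hypoxia. NDUFA4L2 (ENSG00000185633, chromosome 12, 57234903 to 57240715, minus strand, GRCh38) had 147 and 107 counts in shScb and 391 and 364 counts in shTTC8, or 2.91 and 1.97 CPM against 10.1 and 8.79 CPM. It rose 3.87-fold (log2 fold change 1.95, SE 0.20, adjusted p = 3.67e-06 by edgeR), and the groups lay far outside the spread of their replicates. NDUFA4L2 shares 33 exonic bases, 1.18% of its exonic length, with SHMT2, which had 2715% of its counts and was lower (-0.71). NDUFA4, an abundant subunit of complex IV, had 162 and 176 CPM in shScb and 188 and 192 CPM in shTTC8, and was at the edge of the test (0.17, SE 0.06, edgeR adjusted p = 0.0498). Per kilobase, NDUFA4 stood at 79.3 CPM and NDUFA4L2 at 2.06 CPM in shScb, and at 89.2 and 7.95 CPM in shTTC8.

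The core subunits that mitochondrial DNA encodes had values on both sides of 0, from -0.23 for MT-ND4L to 0.29 for MT-ND6. Of the 7 MT-ND genes 1 was higher and none was lower by edgeR, against 15.2% and 16.7% of all genes tested. Their median was -0.05. Their sum was 23251 and 21002 CPM in shScb and 21441 and 21168 CPM in shTTC8, so the groups overlapped. The higher one was MT-ND6, the only one of them encoded on the light strand. It had 671 and 649 CPM in shScb and 865 and 754 CPM in shTTC8 (0.29, SE 0.07, edgeR adjusted p = 0.0045). The library kit does not mark strand, so reads from the opposite strand at MT-ND6 could not be told apart. MT-ND3 had 1397 and 1249 CPM in shScb and 1127 and 1201 CPM in shTTC8, with no overlap (-0.18, edgeR adjusted p = 0.0528); DESeq2 called it lower, with an adjusted p of 0.00599, as did edgeR with the replicate number as a block, with 0.0364. In each MT-ND gene shScb 2 was below shScb 1, the opposite of most nuclear subunits.

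Complex I assembly factors without the NDUFAF name gave 1 higher and 1 lower of 12, against 15.2% and 16.7% of all genes tested. Their median was -0.01. FOXRED1 was higher (0.37, SE 0.08), with 49.4 and 52.6 CPM in shScb and 70.1 and 62.0 CPM in shTTC8. TIMMDC1, a membrane factor of proximal-arm assembly, was lower (-0.32, SE 0.07), with 90.8 and 91.1 CPM in shScb and 69.7 and 75.8 CPM in shTTC8. ACAD9, ECSIT and TMEM126B, which work with NDUFAF1, had values of -0.17, -0.04 and -0.15 and did not pass. With the correction for GC content and length, ACAD9 (-0.21) and ECSIT (-0.17) passed downwards, with edgeR adjusted p-values of 0.0102 and 0.00971. TMEM70 (0.29) and DMAC1 (0.22) then passed upwards, with edgeR adjusted p-values of 0.0065 and 0.018. The median of the list was -0.0051 under that correction.

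Nuclear subunits of complexes II to V were close to those of complex I: 21 of 42 tested were higher and 1 was lower, with a median of 0.22. Those with the smallest p were the small ATP synthase subunits ATP5F1E (0.59), ATP5MF (0.72) and ATP5ME (0.73), which were higher, and the complex IV subunit COX5A, which was the lower one. COX5A had 132 and 139.5 CPM in shScb and 94.4 and 103 CPM in shTTC8 (-0.46, SE 0.06, edgeR adjusted p = 7.83e-05). Genes that stand for mitochondrial content gave 5 higher and 2 lower of 15, against 15.2% and 16.7% of all genes tested. Their median was 0.05. Their reference transcripts are longer, with a median of 2040 bases against 1209.5 bases for complexes II to V. With the correction for GC content and length, the median log2 fold change was 0.086 for the content genes and 0.197 for complexes II to V. The import genes TIMM23 (0.36) and TOMM22 (0.28) were among the higher ones, and the outer-membrane genes TOMM20 (-0.48) and VDAC1 (-0.29) were lower. The matrix enzyme gene CS stood at 383 and 361 CPM in shScb and 360 and 379 CPM in shTTC8, with overlapping groups. The differences between these lists were not tested.

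Regulators of nuclear respiratory genes gave 1 higher and 1 lower of 11, against 15.2% and 16.7% of all genes tested. Their median was 0.11. ESRRA, an orphan nuclear receptor that activates such genes, rose from 89.2 and 95.2 CPM to 117 and 113 CPM (0.32, SE 0.06, edgeR adjusted p = 0.00122). YY1 fell from 176 and 169 CPM to 151 and 155 CPM (-0.17, SE 0.06, edgeR adjusted p = 0.0364). NRF1 and GABPA, whose letters are marked in the promoters above, had values of 0.22 and -0.16 and did not pass. The coactivator gene PPARGC1A was low, with 2.99 and 1.82 CPM in shScb and 3.22 and 4.66 CPM in shTTC8 (0.72, SE 0.27, edgeR adjusted p = 0.0622). It passed upwards with the replicate number as a block (adjusted p = 0.017 by edgeR) and with the correction for GC content and length (0.0137). YY1, in contrast, did not pass with the block (edgeR adjusted p = 0.0719). With the correction, TFAM (0.31), GABPB1 (0.23) and TFB2M (0.21) also passed upwards, and PPRC1 (-0.23) passed downwards. The median of the regulators was then 0.20.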

How the data were processed

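The members and lists were chosen with earlier results of these data known. RNA came from TRIzol extraction and libraries from an Illumina TruSeq RNA kit, per the labels' protocols. The submitters' processing notes name HISAT2 2.2.0 and hg38; how reads were assigned to genes, and with which annotation, is not given in the sources used here. What the authors deposited is a table of raw counts per Ensembl gene, 1 column per library, with no normalization by the authors. Symbols came from a gene name table or from GENCODE 29 (GRCh38), which also gave positions, exons, and the length and GC content of the reference transcript (the longest APPRIS principal one, otherwise the longest basic coding one, otherwise the longest).

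The count test was that of edgeR 4.0.16 (R 4.3.3): filterByExpr with default settings, TMM scaling, robust quasi-likelihood F test, two-sided, Benjamini-Hochberg adjustment over the 19610 genes tested, threshold 0.05. Fold changes are shTTC8 over shScb; SE is the absolute log2 fold change divided by the root of F. CPM use TMM-scaled library sizes, and ± is the SD over 2 libraries. Ratios between replicates use log2 CPM with a prior count of 2. The fits were tested on simulated data. Replicates differed beyond sampling noise (chi-square per degree of freedom 11.4 in shScb and 6.40 in shTTC8), and none was merged. The biological coefficient of variation was 10.5%.

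Per-library values are given for the called assembly factors, the 6 called subunits with the smallest p, the most abundant uncalled subunit, NDUFA4 and NDUFA4L2; of the mtDNA-encoded subunits, other assembly factors, regulators and mitochondrial content genes, called genes are named, up to 4 by smallest p. Other genes named with values were chosen after those were seen. Single values of 1 subunit that the rule covers are not reported here; it is kept in the counts, sums and medians. Alternatives were RLE scaling, library size alone, other filters, DESeq2 1.42.0, limma-voom (limma 3.58.1), the replicate number as a block, fitting without the robust option, leaving out each library, an offset for GC content and length (lowess span 0.3), thinning to equal depth, and a threshold of 0.01. Leaving out members with shared exons was added after seeing the data.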

Additional observations from a re-analysis of the deposited data

How the results depend on the processing

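With a single library left out, the number of subunits called higher ranged from 11 to 28, the number called lower from 0 to 1 (NDUFA3, without shTTC8 replicate 2), the number of assembly factors called lower from 0 to 1, and the median of the assembly factors from -0.026 to 0.14; in these fits the lone library of a group is assumed to vary like the pair of the other group. At an adjusted p under 0.01, 13 subunits were higher and 0 assembly factors were lower. With the offset for GC content and transcript length, 2 assembly factors were lower and their median was 0.15. The other settings gave from 14 (of 30, without subunits that share exons) to 26 higher subunits. With the replicate number as a block, 22 subunits were higher, none was lower, and the median was 0.23. Replicate differences hardly correlated between the groups (r = 0.03 across genes, which are not independent). This correlation cannot show whether libraries with the same number were prepared as pairs. Of the 21 called subunits 9 were called in each of the 14 refits (among them NDUFA1, NDUFA7, NDUFA8, NDUFA13, NDUFB2, NDUFB3, NDUFB8 and NDUFS5), as were NDUFAF5, NDUFAF8 and NDUFA4L2. NDUFA4 kept its call in 6 of 14 and NDUFA11 in 4 of 14. Members that did not pass changed sign as follows. With the offset, NDUFAF4 was at 0.12, NDUFS7 at -0.028 and NDUFS8 at -0.023, and with library size alone NDUFB4 was at 0.012. With a single library left out, NDUFAF6 ranged from -0.028 to 0.25, NDUFAF7 from -0.025 to 0.087, NDUFB4 from -0.090 to 0.029 and NDUFA3 from -4.34 to 0.90. The cause was not tested. NDUFA3 and NDUFA4L2 had a mean under 10 CPM, and NDUFA4L2 kept its call when the libraries were thinned to equal depth.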
